A study of Sus scrofa with 6 samples.

Results

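Amino acids enter and leave liver cells through carriers of the solute carrier families, and 10 genes of these families that handle tryptophan and other neutral amino acids were followed in newborn piglet liver. The genes were taken by name, as the heavy chain SLC3A2, the light chains SLC7A5, SLC7A7 and SLC7A8, the facilitated carriers SLC16A10, SLC43A1 and SLC43A2, and the sodium-coupled carriers SLC38A2, SLC38A3 and SLC38A4. Of the 10, 8 matched one of the 26733 features of the expression tables by Ensembl identifier. SLC7A5, a tryptophan carrier of most dividing cells, and SLC43A1, a facilitated carrier of branched-chain amino acids, matched none and were not analysed here.

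The samples were 6 bulk liver RNA-seq libraries from newborn Landrace x Yorkshire piglets, whose mothers had received tryptophan in 1 of 2 daily patterns. Mothers of the 2×Trp group ate feed with 0.26% tryptophan at both meals, and mothers of the High-Low group ate 0.39% at the morning meal and 0.13% at the later one. There were 3 libraries per group, and no further treatment or genetic change is named for either group. The series title asks which liver genes accompany negative effects of dietary tryptophan. No label ties a library to its own animal or litter, and p-values therefore cover only the spread among these libraries, which may be technical.

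SLC3A2 encodes a membrane glycoprotein, also called CD98 heavy chain or 4F2hc, that transports nothing by itself. It binds a light chain of the SLC7 family through a disulfide bond and brings it to the cell surface, where the light chain exchanges amino acids across the membrane. Facilitated carriers such as SLC16A10 and SLC43A2 let amino acids run down their gradients, and carriers of the SLC38 family use the sodium gradient to move glutamine, alanine and other small neutral amino acids. The liver takes up much of the amino acid supply of the blood, and tryptophan that enters it is used for protein or degraded along the kynurenine route.

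Levels were read as FPKM, a fragment count scaled to transcript length and library size, and FPKM totals per library ran from 956426 to 1230288. Read depth is unknown, since the values keep no counts. The tissue label was checked on 18 hepatocyte markers, of which 16 had a feature, and ALB, TTR and APOA1 lay between 4654 and 31095 FPKM in every library. AHSG, another abundant hepatocyte product, was listed at 0 in all 6, and 59 features combined a 0 in some library with 20 FPKM or above in another, so a low value may be a failed estimate. Libraries also differed with the genomic span of a gene. Relative to the mean of the 6 libraries, the fifth of tested genes with the longest spans had a median log2 level of 0.17 in High-Low 1, -0.14 in High-Low 2 and 0.08 in High-Low 3. The 2×Trp libraries lay from -0.04 to 0.00 there. The fifth with the shortest spans had the opposite order within High-Low, at -0.13, 0.14 and -0.10.

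The 2 members that separated the diets were the heavy chain SLC3A2 and its light chain SLC7A8, with every High-Low value under every 2×Trp value. Neither passed the test across all genes. The light chain SLC7A7, the facilitated carrier SLC43A2 and the sodium-coupled carriers SLC38A3 and SLC38A4 overlapped between diets. Groups that do not overlap, lower in High-Low, were found for 4.12% of the 10901 genes tested and for 2 of the 6 members tested, and higher in High-Low for 3.06% of genes and 0 members. Tests used limma on log2(FPKM + 1) over genes that reached 1 FPKM in 3 or more libraries, with p-values adjusted by the Benjamini-Hochberg method over all of them. At an adjusted p under 0.05, 0 of the 6 members were called, against 1 of 10901 genes (0.00917%). At an unadjusted p under 0.05, 2 members were lower and 0 higher in High-Low, where 1.92% of all tested genes were lower and 1.25% higher. The members were chosen with earlier results of these data known, so setting their shares beside those of all genes is not a test. Over the 6, log2 fold changes were positive for 3 and negative for 3, and their median was -0.14. Over all genes tested the median was -0.004 and 50.5% were negative.

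SLC3A2 (ENSSSCG00000022404, chromosome 2, 8265773 to 8273083, plus strand, in the susScr3 assembly) had 53.0, 35.1 and 40.4 FPKM in 2×Trp 1, 2 and 3. In High-Low 1, 2 and 3 it had 17.6, 25.8 and 22.9 FPKM. The lowest 2×Trp library thus stood above the highest High-Low library, and High-Low 1 was the lowest of all. Mean levels were 42.9 ± 9.20 FPKM for 2×Trp and 22.1 ± 4.17 FPKM for High-Low (SD, n = 3 each). The log2 fold change, High-Low minus 2×Trp, was -0.92 (SE 0.23, 95% interval -1.47 to -0.37), or 0.53 times the 2×Trp level with an interval from 0.36 to 0.77. Its adjusted p in limma was 0.998, and its unadjusted p of 0.0052 ranked 40th among the 10901 genes. Over 15 other ways of processing or leaving out 1 library, the log2 fold change ran from -1.05 to -0.76 and the adjusted p in limma from 0.344 to 1.00.

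WDR74, a ribosome assembly factor, lies 3648 bases beyond SLC3A2 on the same strand. It was also highest in 2×Trp 1, at 45.6 FPKM, but the other libraries of both diets overlapped, at 23.6 and 19.2 FPKM in 2×Trp 2 and 3 and 17.0, 26.6 and 20.8 in High-Low 1, 2 and 3.

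Among light chains, SLC7A8 encodes LAT2, which pairs with SLC3A2 to exchange large and small neutral amino acids, tryptophan among them. SLC7A8 (ENSSSCG00000002032, chromosome 7, 81241895 to 81260081, plus strand) had 2.58, 3.52 and 4.46 FPKM in 2×Trp 1, 2 and 3 and 1.86, 2.13 and 1.77 in High-Low 1, 2 and 3. The diets did not overlap, although 2×Trp 1 lay near the High-Low values. The means were 3.52 ± 0.939 and 1.92 ± 0.185 FPKM (SD, n = 3 each). The log2 fold change was -0.61 (SE 0.23, 95% interval -1.14 to -0.08), with an unadjusted p of 0.0292 and an adjusted p of 0.998 in limma. The pseudocount weighs on a gene this low, and with a pseudocount of 0.1 the log2 fold change was -0.81.

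SLC7A7 encodes y+LAT1, which also pairs with SLC3A2 and sends out cationic amino acids in exchange for neutral ones and sodium. SLC7A7 (ENSSSCG00000002041, chromosome 7, 81441334 to 81477745, plus strand) had 7.30, 7.57 and 8.08 FPKM in 2×Trp 1, 2 and 3 and 7.49, 9.45 and 7.95 in High-Low 1, 2 and 3. It was the steadiest member, with its highest library only 1.29 times its lowest, and the diets overlapped. The log2 fold change was 0.10 (95% interval -0.34 to 0.54, adjusted p = 0.998, limma), which leaves room for a change to 0.79 or 1.45 times the 2×Trp level. Its last 2364 bases overlap OXA1L, an insertion factor of the inner mitochondrial membrane encoded on the opposite strand, at 64.8 to 92.5 FPKM. The sources used here do not say whether strand was used, so reads of the 2 genes may not have been told apart in that stretch.

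SLC7A8 and SLC7A7 lie on the same strand of chromosome 7, 181 kb apart with 8 features between them, but only SLC7A8 separated the diets. Within a diet their orders were alike: both rose from 2×Trp 1 to 2×Trp 3, and both were highest in High-Low 2 among High-Low libraries. The ratio of SLC7A7 to SLC7A8 FPKM was 2.83, 2.15 and 1.81 in 2×Trp 1, 2 and 3 and 4.02, 4.45 and 4.50 in High-Low 1, 2 and 3. A ratio within a library does not depend on scaling between libraries, and these 6 separated the diets.

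The balance of heavy to light chain was read in the same way. The ratio of SLC3A2 to SLC7A7 was 7.26, 4.64 and 5.01 in 2×Trp 1, 2 and 3, and 2.35, 2.73 and 2.88 in High-Low 1, 2 and 3, without overlap. The ratio of SLC3A2 to SLC7A8 was 20.6, 9.99 and 9.08 against 9.44, 12.1 and 13.0, so there the diets overlapped and 2×Trp 1 alone stood high. Against SLC7A7 and SLC7A8 summed, SLC3A2 stood at 5.37, 3.17 and 3.23 in 2×Trp and 1.88, 2.23 and 2.36 in High-Low. The heavy chain value in FPKM exceeded the sum of its 2 measured light chains in all 6 libraries. The lengths listed are 556 bases for SLC3A2, 3610 for SLC7A7 and 2642 for SLC7A8. Since the divisor behind the values is not known, this order between genes is unsure. These ratios restate the gene values above and were not tested.

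**Figure D1:**
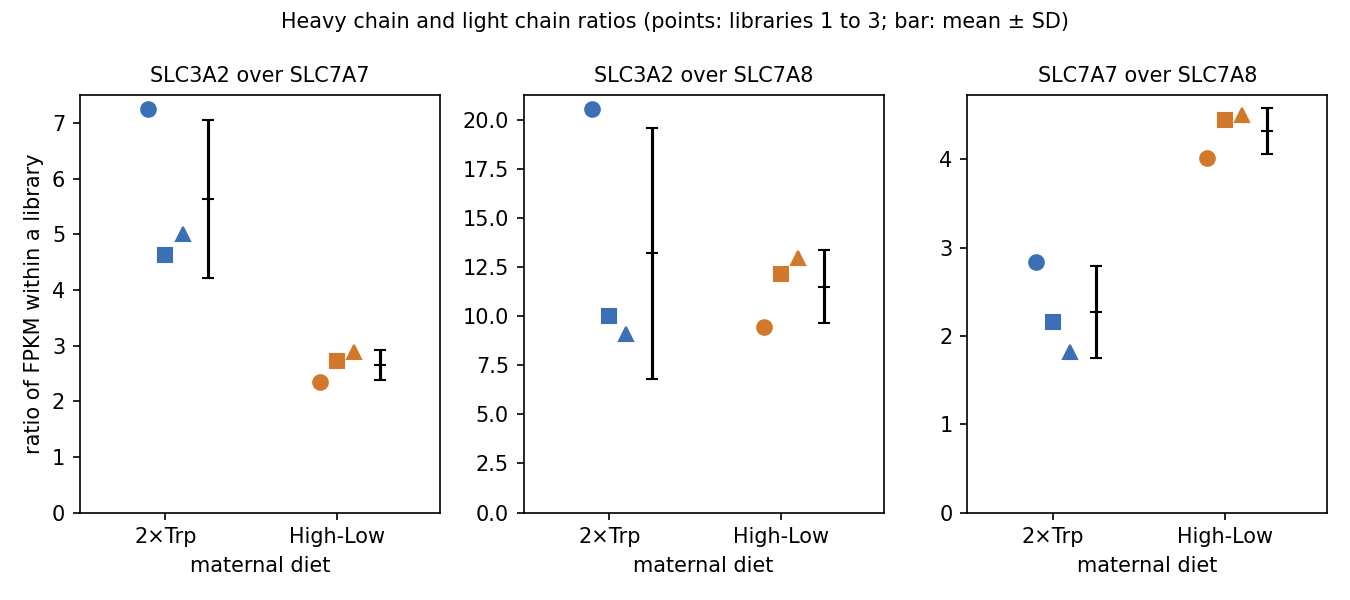
Ratio of FPKM within each library for SLC3A2 over SLC7A7, SLC3A2 over SLC7A8 and SLC7A7 over SLC7A8, with circles, squares and triangles for libraries 1, 2 and 3 of each maternal diet and bars for mean ± SD (n = 3). The first and last panels show diets that do not overlap (4.64 to 7.26 against 2.35 to 2.88, and 1.81 to 2.83 against 4.02 to 4.50), and the middle panel shows overlap.

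Other possible partners of SLC3A2 were low or without a feature. SLC7A11, the cystine and glutamate exchanger, was listed at 0 in all 6 libraries, SLC7A10 did not exceed 0.19 FPKM, and SLC7A6, the other y+L light chain, matched no feature. These 3 were named after their values were seen. The second heavy chain, SLC3A1, which serves the cystine and dibasic amino acid carrier of kidney and gut, had 0.16 to 0.27 FPKM, and its light chain SLC7A9 had 1.05 to 7.14 FPKM with High-Low 2 the highest and 2×Trp 1 the lowest.

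Among facilitated carriers, SLC43A2 encodes LAT4, which carries branched-chain amino acids, methionine and phenylalanine. SLC43A2 (ENSSSCG00000024108, chromosome 12, 49681830 to 49723909, minus strand) had 29.4, 40.4 and 47.2 FPKM in 2×Trp 1, 2 and 3 and 50.7, 40.2 and 42.0 in High-Low 1, 2 and 3. The lowest and the highest library belonged to different diets, but the other 4 lay between 40.2 and 47.2 FPKM. The log2 fold change was 0.20 (95% interval -0.34 to 0.73, adjusted p = 0.998, limma), and 0.01 without 2×Trp replicate 1. The libraries at the extremes of SLC43A2 were those at the extremes of SLC3A2, in reverse: 2×Trp 1 was the highest for SLC3A2 and the lowest for SLC43A2, and High-Low 1 the lowest and the highest. This was not particular to SLC43A2, since SLC38A3 had the same lowest and highest libraries. Of the 8 measured members, 2×Trp 1 was the highest library for 2 and the lowest for 3, and High-Low 1 the highest for 3 and the lowest for 1.

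SLC16A10 encodes TAT1, a facilitated carrier selective for tryptophan, tyrosine and phenylalanine. SLC16A10 (ENSSSCG00000004419, chromosome 1, 86680011 to 86688165, minus strand) stayed under 1 FPKM in every library, at 0.54, 0.40 and 0.03 in 2×Trp 1, 2 and 3 and 0.50, 0.26 and 0.33 in High-Low 1, 2 and 3. It did not pass the filter on low values and was not tested. Apart from 2×Trp 3 the libraries lay within 0.26 to 0.54 FPKM, with no order by diet.

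**Figure D2:**
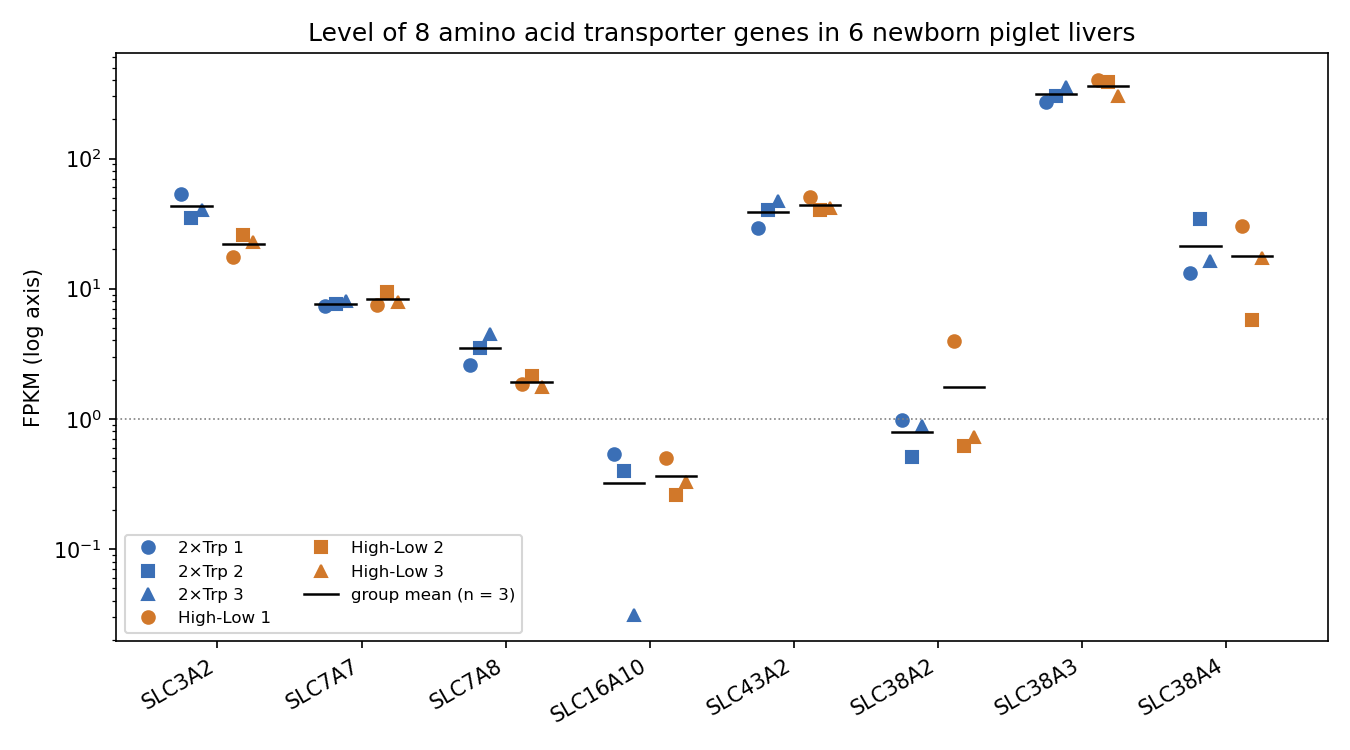
FPKM on a log axis for the 8 measured transporter genes, with circles, squares and triangles for libraries 1, 2 and 3, blue for 2×Trp, orange for High-Low, black bars for group means (n = 3) and a dotted line at 1 FPKM. SLC3A2 (35.1 to 53.0 against 17.6 to 25.8) and SLC7A8 (2.58 to 4.46 against 1.77 to 2.13) show groups that do not overlap.

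The most abundant member was SLC38A3, which encodes SNAT3, the carrier of glutamine, histidine and asparagine that hepatocytes use for both uptake and release. SLC38A3 (ENSSSCG00000011397, chromosome 13, 35863386 to 35878405, plus strand) had 273, 304 and 356 FPKM in 2×Trp 1, 2 and 3 and 403, 385 and 302 in High-Low 1, 2 and 3. Every 2×Trp library stood below High-Low 1 and High-Low 2, but High-Low 3 lay among them. The means were 311 ± 42.1 and 363 ± 53.9 FPKM (SD, n = 3 each), with a log2 fold change of 0.22 (95% interval -0.25 to 0.69, adjusted p = 0.998, limma). SLC38A3 made up 71.4% to 82.0% of the summed FPKM of the 8 measured members and stood above the 97th percentile of detected features in each library.

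SLC38A4 encodes SNAT4, a sodium-coupled carrier of small neutral amino acids found chiefly in liver. SLC38A4 (ENSSSCG00000026597, chromosome 5, 80391398 to 80427093, minus strand) had 13.2, 34.1 and 16.3 FPKM in 2×Trp 1, 2 and 3 and 30.3, 5.74 and 17.1 in High-Low 1, 2 and 3. It was the most variable of the 6 tested members, with its highest library 5.94 times its lowest, and each diet held both high and low libraries. The log2 fold change was -0.39 (SE 0.59, 95% interval -1.76 to 0.98, adjusted p = 0.998, limma). It turned to 0.22 without High-Low replicate 2, became -0.89 without High-Low replicate 1 and was -0.0003 without 2×Trp replicate 2. Its direction and size thus depended on single libraries of both diets.

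SLC38A2 encodes SNAT2, the widely expressed carrier that cells induce when amino acids run short. SLC38A2 (ENSSSCG00000000808, chromosome 5, 80039269 to 80050523, minus strand) had 0.99, 0.50 and 0.88 FPKM in 2×Trp 1, 2 and 3 and 3.97, 0.62 and 0.72 in High-Low 1, 2 and 3. High-Low 1 was thus the only library above 1 FPKM, the gene did not pass the filter, and its group means of 0.790 and 1.77 FPKM rest on that library. Without a filter on low values the log2 fold change was 0.43 (unadjusted p = 0.359, adjusted p = 0.992, limma). SLC38A2 and SLC38A4 are neighbours on chromosome 5, 341 kb apart on the same strand with 1 feature between them. Both were high in High-Low 1 and low in High-Low 2, but in 2×Trp 2 SLC38A4 had its highest value and SLC38A2 its lowest.

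**Figure D3:**
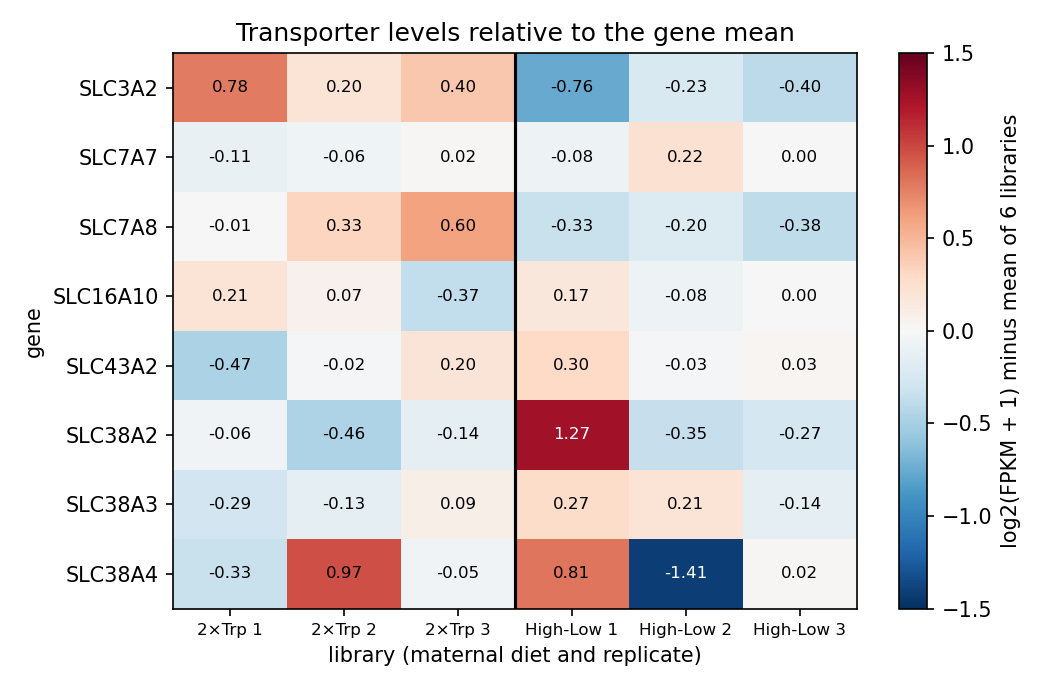
Level of each measured member in each library as log2(FPKM + 1) minus the mean of the 6 libraries (red above, blue below), with a black line between 2×Trp and High-Low. SLC3A2 and SLC7A8 are below their own mean in all High-Low libraries, while SLC38A2 and SLC38A4 follow single libraries (1.27 in High-Low 1 for SLC38A2, -1.41 in High-Low 2 for SLC38A4).

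By mean FPKM over the 6 libraries, the members ranked SLC38A3 (337), SLC43A2 (41.7), SLC3A2 (32.5), SLC38A4 (19.5), SLC7A7 (7.97), SLC7A8 (2.72), SLC38A2 (1.28) and SLC16A10 (0.343). The range of SLC38A3 lay wholly above that of SLC43A2, and the range of SLC7A7 wholly above that of SLC7A8. The ranges of every other pair of neighbours overlapped over the libraries. SLC38A2 nevertheless stood above SLC16A10 within each of the 6 libraries, while the other overlapping neighbours kept their order in 5 of 6 libraries each. FPKM is a level per length, but the sources used here do not say which length was the divisor. The lengths listed beside the values run from 222 bases for SLC43A2 and 280 for SLC38A2 to 3610 for SLC7A7, and some are shorter than a whole transcript, so levels of different genes are less sure than the same gene across libraries.

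The other carriers of amino acids held no gene past the test. Of 44 such genes, 37 had a feature, 11 passed the filter and 6 were listed at 0 in every library. The 11 tested split into 5 positive and 6 negative, their median log2 fold change was -0.07, and 0 passed at an adjusted or an unadjusted p under 0.05 in limma. SLC1A5, an exchanger of glutamine and other neutral amino acids, had 8.50 ± 1.47 FPKM for 2×Trp and 6.15 ± 1.70 FPKM for High-Low (SD, n = 3 each). SLC1A4, a carrier of alanine, serine and cysteine, had 10.8, 6.95 and 9.28 FPKM against 26.2, 5.20 and 20.1, so that High-Low libraries were both the highest and the lowest. SLC38A5, a system N carrier like SLC38A3, had 4.82 to 14.8 FPKM without order by diet.

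The 5 tested lysosomal and remaining SLC38 carriers were all negative (median log2 fold change -0.13), and 0 were called. SLC38A10 alone among the 11 did not overlap between diets. It had 42.9, 41.0 and 41.5 FPKM in 2×Trp and 32.2, 39.9 and 29.0 in High-Low. Its log2 fold change was -0.32 (SE 0.19, unadjusted p = 0.135, limma). Of all tested genes, 4.12% were lower and 3.06% higher in High-Low without overlap. SLC15A3, a lysosomal carrier of histidine and peptides, had 4.80 ± 0.882 and 3.33 ± 0.981 FPKM (SD, n = 3 each). SLC66A1, which exports cationic amino acids from lysosomes, had 14.5 to 28.0 FPKM with overlap. SLC7A2, the cationic amino acid carrier of liver, had 6.83, 10.6 and 3.34 FPKM in 2×Trp and 14.4, 3.40 and 6.48 in High-Low.

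**Figure D4:**
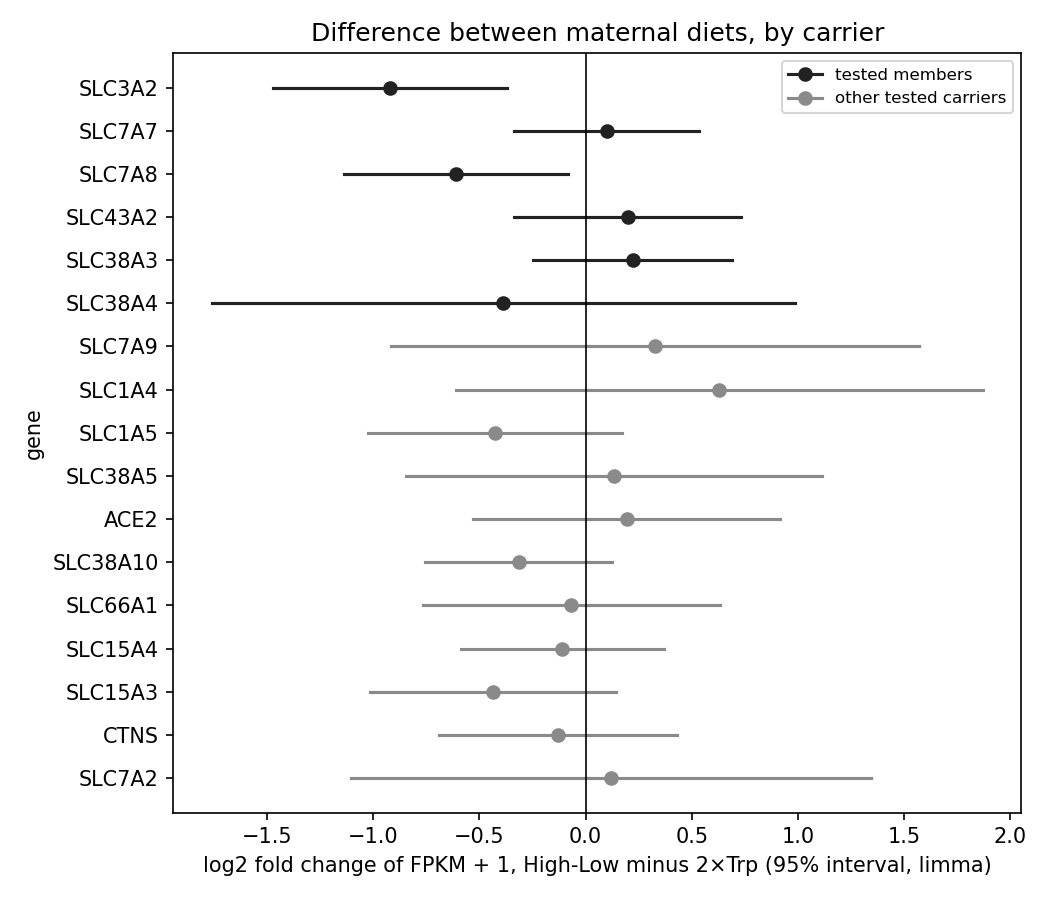
Log2 fold change of FPKM + 1, High-Low minus 2×Trp, with its 95% interval from limma for the 6 tested members (black) and the 11 other tested carriers (grey). Only SLC3A2 (-1.47 to -0.37) and SLC7A8 (-1.14 to -0.08) have unadjusted intervals that leave out 0, and neither passed after adjustment over all genes.

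Gene groups that read amino acid supply were placed beside the carriers. Of 36 genes of amino acid sensing by mTORC1, the kinase complex that light chain transport of leucine helps to activate, 26 were tested, 11 positive and 15 negative. Their median log2 fold change was -0.06, 0 were called, and 2 did not overlap between diets, both lower in High-Low. Over all genes tested, 1 of 10901 was called and 4.12% were lower in High-Low without overlap. EIF4EBP1, the translation repressor that mTORC1 inactivates, had 108 ± 11.0 FPKM in 2×Trp and 83.0 ± 17.9 in High-Low. The leucine sensor SESN2 had 12.6 ± 2.33 and 9.28 ± 3.86, and the arginine sensor CASTOR1 7.34 ± 1.74 and 5.37 ± 2.27 (SD, n = 3 each). Of 28 genes of the amino acid stress response driven by ATF4, a pathway known to induce SLC3A2, SLC7A5 and SLC38A2, 16 were tested, 7 positive and 9 negative. Their median was -0.07, and 0 were called. ATF4 itself matched no feature. Of the 16, only ATF5 did not overlap, with 1362 to 1620 FPKM in 2×Trp and 1068 to 1284 in High-Low (unadjusted p = 0.0594, limma). ATF3 was led by High-Low 2 at 12.2 FPKM against at most 2.81 elsewhere.

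The genes whose library pattern lay closest to SLC3A2 were sought among the 6532 tested genes with a symbol, by the root mean square difference of log2(FPKM + 1) after centring each gene on its mean over the 6 libraries. They were ADRB1, the beta-1 adrenergic receptor (0.11), PHYHD1 (0.14), the extracellular matrix protein ECM1 (0.17), the transcription factor CREB3L1 (0.18) and HID1 (0.19). ADRB1 was low, at 3.99, 2.58 and 2.84 FPKM in 2×Trp and 0.87, 1.15 and 1.37 in High-Low. The pseudocount therefore weighs on the pattern of ADRB1. ECM1 had 58.8, 48.8 and 61.5 FPKM in 2×Trp and 21.6, 40.7 and 32.4 in High-Low, and CREB3L1 9.22, 5.49 and 5.87 against 3.46, 5.02 and 3.80. Among the members SLC7A8 lay nearest, at 0.38, followed by SLC7A7 at 0.55, SLC38A3 at 0.67, SLC43A2 at 0.71 and SLC38A4 at 1.00. The difference is not scaled to how much a gene varies, so a steady gene can rank near without sharing the pattern. SLC7A7 lay at -0.11 in 2×Trp 1 and 0.22 in High-Low 2, where SLC3A2 lay at 0.78 and -0.23.

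SLC3A2 and SLC7A7 are also expressed by macrophages and other blood cells, and in bulk tissue fewer cells of a type and less RNA per cell cannot be told apart. Marker lists of 9 cell types were therefore set beside the members, and 0 of their genes were called in limma. Over all genes tested, 1.92% were lower and 1.25% higher in High-Low at an unadjusted p under 0.05 in limma. Groups did not overlap for 4.12% of genes lower in High-Low and for 3.06% higher. The lists were chosen with earlier results of these data known, so their counts beside these shares are not a test. Of 6 tested macrophage markers 5 were negative, the median log2 fold change was -0.63, 4 had an unadjusted p under 0.05 and 2 did not overlap between diets. Those 2, named after their values were seen, were CSF1R, at 16.6 to 19.4 FPKM in 2×Trp against 7.04 to 12.5 in High-Low, and TIMD4, at 33.1 to 43.5 against 21.7 to 32.8. The positive marker, MARCO, had 6.12 to 11.8 FPKM in 2×Trp and 9.50 to 19.7 in High-Low, with a log2 fold change of 0.50. The 11 endothelial markers tested were all negative (median -0.41), 1 at an unadjusted p under 0.05 and 3 without overlap, all lower. Of 6 tested erythroid markers 5 were negative, and the median was -0.64, with 2 at an unadjusted p under 0.05 and 1 without overlap, lower. The 3 tested lymphocyte markers were negative (median -0.19, 1 at an unadjusted p under 0.05 and the same number without overlap).

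Neutrophil markers lay on the other side, with all 7 tested positive, a median of 0.60, 0 at an unadjusted p under 0.05 and 1 without overlap, higher. The 4 tested bile duct markers were 2 positive and 2 negative (median 0.01), the 8 stellate and fibroblast markers 3 and 5 (median -0.15), and the 15 hepatocyte markers 6 and 9 (median -0.10). Groups did not overlap for 1 bile duct and 2 hepatocyte markers, all lower in High-Low, and for 0 stellate and fibroblast markers. In these lists 0 markers had an unadjusted p under 0.05 in limma. No megakaryocyte marker passed the filter, and of the 4 with a feature GP1BB and GP6 were listed at 0 in all libraries. Summed over markers with a feature, macrophage levels were 421 to 582 FPKM in 2×Trp and 259 to 449 in High-Low, mostly C1QA, and erythroid levels 6174 to 15894 and 1821 to 7201, mostly HBB. Endothelial markers summed to 181 to 222 and 112 to 205 FPKM, lymphocyte markers to 14.3 to 22.0 and 9.30 to 12.8, and neutrophil markers to 39.6 to 60.5 and 42.9 to 184. Of these 5 sums only that of lymphocyte markers did not overlap, and all but the neutrophil sum were lowest in High-Low 1, where SLC3A2 was lowest too. The bile duct sum was also lowest in High-Low 1, at 23.1 FPKM. In 2×Trp 1, where SLC3A2 was highest, the endothelial and erythroid sums were the highest of all libraries. The macrophage and lymphocyte sums of 2×Trp 1, at 421 and 14.3 FPKM, were instead the lowest of 2×Trp. The largest part of the lymphocyte sum in every library was NKG7, at 9.47 to 14.2 FPKM in 2×Trp and 6.14 to 7.51 in High-Low. The part of these cells in the SLC3A2 and SLC7A8 values was not tested.

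Without High-Low replicate 1, SLC3A2 stood at a log2 fold change of -0.77 (unadjusted p = 0.0192) and SLC7A8 at -0.60 (unadjusted p = 0.0644), with an adjusted p of 1.00 in limma for both. With the trend on genomic span removed from each library, a step chosen after seeing the data, SLC3A2 stood at -0.87 and SLC7A8 at -0.61.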

How the data were processed

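Liver RNA of newborn piglets was isolated with Trizol and sequenced after TruSeq RNA library preparation, per the labels' protocols. Tools named are TopHat2 2.0.12, Bowtie2 2.2.3 and HTSeq 0.6.1, with assembly susScr3, per the submitters' processing notes. How the values were made, with which annotation and strand setting, is not given in the sources consulted. Each library has its own deposited table, and no header states a unit. The deposited values were taken to be FPKM, being not whole and differing in total between libraries. The deposited length per feature was only described. No counts could be recovered, so no counting interval is given. Groups and replicate numbers came from the sample titles.

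FPKM were used as deposited, as log2(FPKM + 1), in limma 3.58.1 under R 4.3.3 with a variance trend and robust estimation, over genes that reached 1 FPKM in 3 or more libraries. The threshold was an adjusted p of 0.05. The step was tested on simulated data. An Ensembl identifier table gave symbols to 11804 features, and 55 of 222 list symbols matched none. Genes are named by rule: the members, of each other carrier list those with an unadjusted p under 0.05 or else the 2 of smallest p and the 2 most abundant, the 3 of smallest p of the sensing and stress lists, and the 5 closest to SLC3A2. Members and lists were chosen with earlier results of these data known. Same-numbered libraries were not paired. Alternatives covered scaling, filter, pseudocount, variance model, replicate block, gene span and leaving out each of the 6 libraries. Figures were drawn with matplotlib 3.10.9.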

Additional observations from a re-analysis of the deposited data

How the results depend on the processing

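With 3 libraries per diet and unknown depth, the intervals allow sizeable changes for every member that did not separate the diets. SLC3A2, SLC7A7, SLC7A8, SLC43A2 and SLC38A3 kept their direction under every alternative that could be fitted (15 each, 14 for SLC7A8, which drops out at 5 FPKM), and no member was called under any of them. SLC38A4 turned to 0.22 without High-Low replicate 2, and ran from -0.89 to 0.22 when single libraries were left out. The cause was not tested. The unadjusted p of SLC7A8 was under 0.05 in 9 of its 14 alternatives and reached 0.114, and that of SLC3A2 was under 0.05 in 15 of 15 and at most 0.0215. Over the whole table, genes called higher were 1 to 2 when single libraries were left out, 2 without 2×Trp replicate 3, and 1 gene was called lower in place of 0 under quantile normalization and under scaling by the FPKM total, where the cause was not tested. Leaving out High-Low replicate 2 took the genes at an unadjusted p under 0.05 from 345 to 1412.

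Correlations of the deviations of same-numbered libraries were -0.22, -0.01 and 0.03, and those of differently numbered libraries ran from -0.13 to 0.12. With 3 libraries per diet, these values cannot show whether the numbers pair the libraries. With the replicate block, SLC3A2 stood at -0.92 (unadjusted p = 0.0172) and SLC7A8 at -0.61 (unadjusted p = 0.0633), with 1 gene called higher, 0 lower and 0 members.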

Other observations

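High-Low 1 and High-Low 2 lay far apart in several carriers, a pattern chosen after the values were seen. On the FPKM + 1 scale, 4 of the 17 tested carriers (the 6 members and the 11 others) were more than 2-fold higher in High-Low 1 than in High-Low 2, and 1, SLC7A9, was more than 2-fold lower. Of all tested genes 10.2% were more than 2-fold higher in High-Low 1 and 7.18% more than 2-fold lower. As plain FPKM, the ratio of High-Low 1 to High-Low 2 was 5.29 for SLC38A4, 5.04 for SLC1A4, 4.23 for SLC7A2 and 2.70 for SLC38A5, and 6.38 for SLC38A2, which was under the filter. The 2 libraries share a maternal diet.

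SLC38A3 did not follow this pattern, with a ratio of 1.05, nor did SLC7A8 (0.88), SLC7A7 (0.79) or SLC3A2 (0.68). The hepatocyte gene APOB, named after its values were seen, had 22.6 FPKM in High-Low 1, 1.37 in High-Low 2 and 2.08 to 3.82 in the other libraries. The part that the trend on genomic span plays in these ratios was not tested.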
